A study of Mus musculus with 8 samples.

Results

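The Neurog and Neurod genes and Atoh1 encode the proneural basic helix-loop-helix (bHLH) factors of the atonal-related class. Their 8 genes (Neurog1, Neurog2, Neurog3, Neurod1, Neurod2, Neurod4, Neurod6 and Atoh1) were chosen by symbol, and all 8 were among the 24418 gene symbols of the total RNA table. All 8 also passed the filter on low counts, while 4 of them (Neurog2, Neurod1, Neurod2 and Neurod4) were listed in the polysomal table of 5804 rows.

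In the developing nervous system these factors act in sequence. Neurogenins switch dividing progenitors towards a neuronal fate and raise Notch ligands such as Dll1, and Neurod factors follow in the newborn neuron and carry its differentiation forward. Each factor binds DNA as a dimer with an E protein (Tcf3, Tcf4 or Tcf12) at a short sequence called an E-box. Id proteins and some Hes proteins, such as Hes1 and Hes5, oppose these factors.

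The samples were E11.5 mouse brain and neural tube (E counts days of gestation). The embryos carried knockout alleles of both Lin28a and Lin28b (Lin28a-/-;b-/-, dKO) or were wildtype (WT). Both genes encode RNA-binding proteins that hold back the maturing of let-7 microRNAs and bind messenger RNAs. From each genotype, polysomal RNA (RNA carrying several ribosomes) and total RNA were sequenced, giving 4 groups of 2 libraries, namely dKO polysomal, WT polysomal, dKO total and WT total RNA. Strain, litter and the way the alleles were made were not stated in the labels, nor do they say that replicates came from separate embryos, so p-values measure the spread between these libraries, which may be technical.

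The total RNA libraries held 15768767 and 15612883 counts in dKO and 15650360 and 15060560 counts in WT. The sums of the polysomal table, over its listed genes, were 3740980 and 5164982 counts in dKO and 14874143 and 15414712 counts in WT. The dKO polysomal replicates stood apart from one another, with a chi-square per degree of freedom of 24.6, against 2.75 to 3.02 for the other 3 pairs. Lin28a had 6.55 and 7.73 CPM (counts scaled to the library's total) in dKO total RNA and 73.3 and 72.2 CPM in WT, and Lin28b had 48.0 and 55.1 CPM in dKO and 128 and 123 CPM in WT, so both targeted genes were lower in the libraries labelled dKO. Of 11 neural tube markers all were detected, at a summed 5977 to 6018 CPM in dKO total RNA and 6336 to 6365 CPM in WT.

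On GRCm38 (GENCODE M21) each of the 8 genes keeps its whole coding sequence in a single exon. Neurog1 lies at chr13:56250478-56252163 on the minus strand, Neurog2 at chr3:127633135-127635631 on the plus strand and Neurog3 at chr10:62133090-62134763 on the plus strand. Neurod1 lies at chr2:79452521-79456751, Neurod2 at chr11:98325415-98329648, Neurod4 at chr10:130268152-130280240 and Neurod6 at chr6:55677822-55681263, all 4 on the minus strand. Atoh1 lies at chr6:64729125-64731245 on the plus strand.

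The promoters of the 2 genes with the largest differences, Neurod2 and Neurod6, are shown beside that of Neurog2, the most abundant member. Each is the 250 bases before the RefSeq start on GRCm38.p6, written 5′ to 3′ on the gene's strand, with every E-box (CANNTG, a core that reads as a match on both strands) in capitals. The windows are chr11:98329646-98329895 (minus) for Neurod2, chr6:55681264-55681513 (minus) for Neurod6 and chr3:127632886-127633135 (plus) for Neurog2.
Neurod2: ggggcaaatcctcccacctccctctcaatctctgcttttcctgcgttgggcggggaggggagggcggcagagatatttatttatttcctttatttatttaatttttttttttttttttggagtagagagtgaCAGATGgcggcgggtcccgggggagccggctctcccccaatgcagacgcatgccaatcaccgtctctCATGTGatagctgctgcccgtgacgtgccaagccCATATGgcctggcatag
Neurod6: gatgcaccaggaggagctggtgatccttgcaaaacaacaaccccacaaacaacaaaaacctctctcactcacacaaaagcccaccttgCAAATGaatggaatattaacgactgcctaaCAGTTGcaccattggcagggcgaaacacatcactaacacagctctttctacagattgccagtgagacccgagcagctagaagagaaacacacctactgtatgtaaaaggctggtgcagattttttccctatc
Neurog2: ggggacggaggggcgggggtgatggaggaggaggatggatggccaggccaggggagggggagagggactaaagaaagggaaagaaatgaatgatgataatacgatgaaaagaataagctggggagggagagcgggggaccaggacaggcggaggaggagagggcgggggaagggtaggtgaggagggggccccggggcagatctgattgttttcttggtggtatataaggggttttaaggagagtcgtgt
The Neurod2 window held 3 E-boxes, CAGATG with its first base at position -118 (-1 is the base before the start), CATGTG at -51 and CATATG at -17. The Neurod6 window held 2, CAAATG at position -162 and CAGTTG at -132. Neurod1 had 1 (CATATG), Neurog3 had 1 (CAGCTG), and no match lay in the windows of Neurog1, Neurog2, Neurod4 or Atoh1. Among 32851 mouse promoter windows of the same length, 66.2% held at least 1 match and 31.8% at least 2, so the matches are a description of these windows and no more.

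Since Lin28 proteins hold back let-7, the 3′ untranslated regions were searched for the let-7 seed match. The mature let-7a sequence from RefSeq is shown with its seed (bases 2 to 8) in capitals, which all 8 let-7 5p miRNAs in the table shared.
let-7a: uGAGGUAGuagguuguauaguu
The match to that seed (CTACCTC) was in the 3′ untranslated region of 0 of the 8 members. Over 21044 mouse genes with an annotated 3′ untranslated region, 9.30% held it.

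In total RNA the 8 genes parted by member and not by family. Neurod2 and Neurod6, factors of differentiating cortical and other glutamatergic neurons, rose 7.28-fold and 6.95-fold in dKO embryos, and Neurog2 rose 1.30-fold. Neurod4 fell 1.32-fold, and Neurog1, Neurog3, Neurod1 and Atoh1 did not pass the test. Thus 4 of 8 members passed an adjusted p of 0.05 in edgeR's quasi-likelihood test, 3 higher and 1 lower, where 30.7% of all 14594 genes tested passed. By direction 14.7% of all genes were called higher and 16.0% lower, and 0.911% were called higher by at least 1 on the log2 scale, as Neurod2 and Neurod6 were. The CPM of the genotypes did not overlap for 62.3% of all genes tested, so lack of overlap between 2 and 2 libraries is common here. In these bulk samples, fewer cells of a type and less RNA per cell cannot be told apart.

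**Figure D1:**
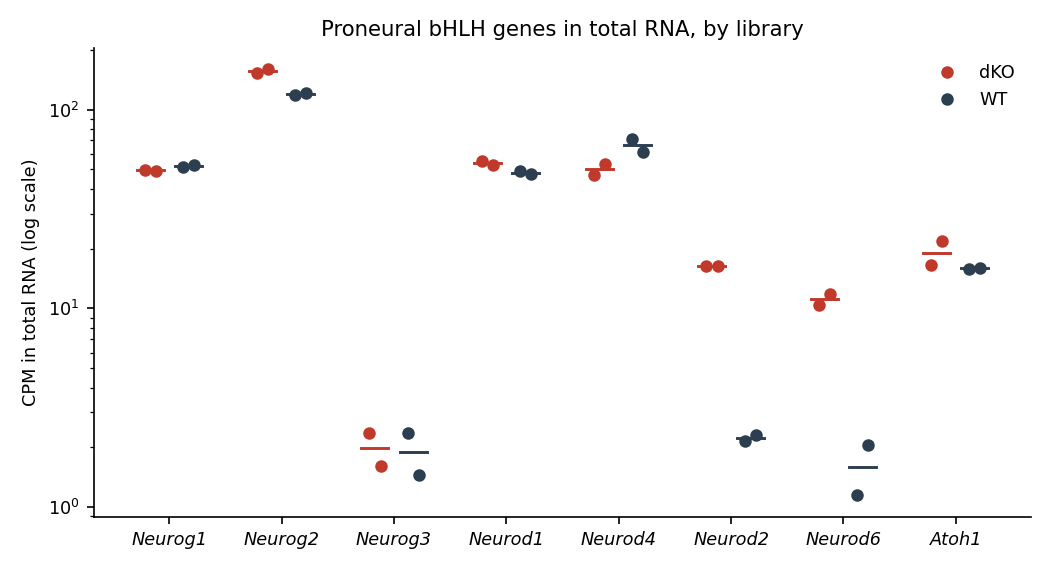
Levels of the 8 members in total RNA, with CPM on a log axis, 1 point per library (dKO left, WT right of each gene) and a bar at the mean of 2 libraries. Neurod2 sits at 16.3 and 16.4 CPM in dKO and at 2.17 and 2.32 CPM in WT, while the libraries of Neurog3 overlap between genotypes.

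Among the neurogenins, Neurog2, which drives neurogenesis in the dorsal telencephalon, spinal cord and sensory ganglia, had 2405 and 2471 counts in dKO and 1856 and 1837 in WT. Scaled to CPM, this was 153 and 159 in dKO, against 118 and 122 in WT. Both dKO libraries lay above both WT libraries, and the log2 fold change was 0.38 ± 0.05 (SE; adjusted p = 4.25e-11).

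Neurog1, a determination factor of cranial sensory neurons and of part of the neural tube, had 49.6 and 49.2 CPM in dKO and 51.7 and 52.8 CPM in WT. The dKO libraries were the lower pair, but the log2 fold change of -0.08 ± 0.09 did not pass (adjusted p = 0.539, 95% interval -0.25 to 0.09). Its interval does not reach the change of its paralogue Neurog2, though the difference between the genes was not tested.

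Neurog3, best known as the factor that starts endocrine cell formation in the pancreas, was the rarest member in dKO, with 37 and 25 counts in dKO and 37 and 22 counts in WT. The groups overlapped. At this depth its interval, -0.82 to 0.93 on the log2 scale, leaves room for a change of the size of Neurog2's in either direction (log2 fold change 0.05 ± 0.45, adjusted p = 0.951). Neurog3 lies inside the span of Fam241b on the opposite strand, a symbol without a row, and reads of the pair can be told apart only where counting used strand. Pdx1, Ins1 and Ins2, defining genes of the endocrine pancreas, had 0 counts in all 4 total RNA libraries.

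Neurod2, a differentiation factor of postmitotic excitatory neurons, had 256 and 255 counts in dKO and 34 and 35 counts in WT. Neurod6, a close relative expressed in young pyramidal neurons, had 163 and 184 counts in dKO and 18 and 31 counts in WT. In CPM, Neurod6 stood at 10.4 and 11.9 in dKO, against 1.15 and 2.05 in WT. For neither gene did the genotypes overlap. The log2 fold changes were 2.86 ± 0.22 for Neurod2 (adjusted p = 4.30e-35) and 2.80 ± 0.27 for Neurod6 (adjusted p = 6.71e-23), the 8th and 9th largest rises of the 14594 genes tested. The WT replicates of Neurod6 were the less even, and its log2 fold change was 2.43 without WT replicate 1 and 3.27 without WT replicate 2, a range of more than 1.5 times in fold.

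Neurod1, a differentiation factor of cerebellar, hippocampal and sensory neurons and of pancreatic beta cells, had 55.0 and 52.8 CPM in dKO and 49.0 and 47.4 CPM in WT. The libraries did not overlap, yet the log2 fold change of 0.16 ± 0.09 missed the threshold (adjusted p = 0.161, 95% interval -0.01 to 0.33). Neurod1 lies inside the annotated span of Cerkl on the same strand, and Cerkl itself had only 17 and 14 counts in dKO and 11 and 7 counts in WT. Gm26755, on the opposite strand, also overlaps Neurod1 and is a symbol without a row. Reads of Neurod1 and Gm26755 can be told apart only where counting used strand.

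Neurod4, expressed as progenitors leave the cycle and in the retina and sensory ganglia, moved the other way from its 2 relatives. It had 741 and 827 counts in dKO and 1115 and 925 counts in WT, which is 47.2 and 53.3 CPM in dKO and 71.0 and 61.2 CPM in WT. Both WT libraries lay above both dKO libraries, and the log2 fold change was -0.40 ± 0.08 (adjusted p = 1.32e-05). It was -0.29 at the weakest when a single library was left out, and passed each time.

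Atoh1, the factor of the rhombic lip, of dorsal spinal interneurons and of inner ear hair cells, had 16.5 and 21.7 CPM in dKO and 15.9 and 15.9 CPM in WT. A single dKO library carried the difference. The log2 fold change of 0.26 ± 0.14 did not pass (adjusted p = 0.155). It was 0.45 and passed (adjusted p = 0.0475) without dKO replicate 1, and was 0.05 without dKO replicate 2.

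**Figure D2:**
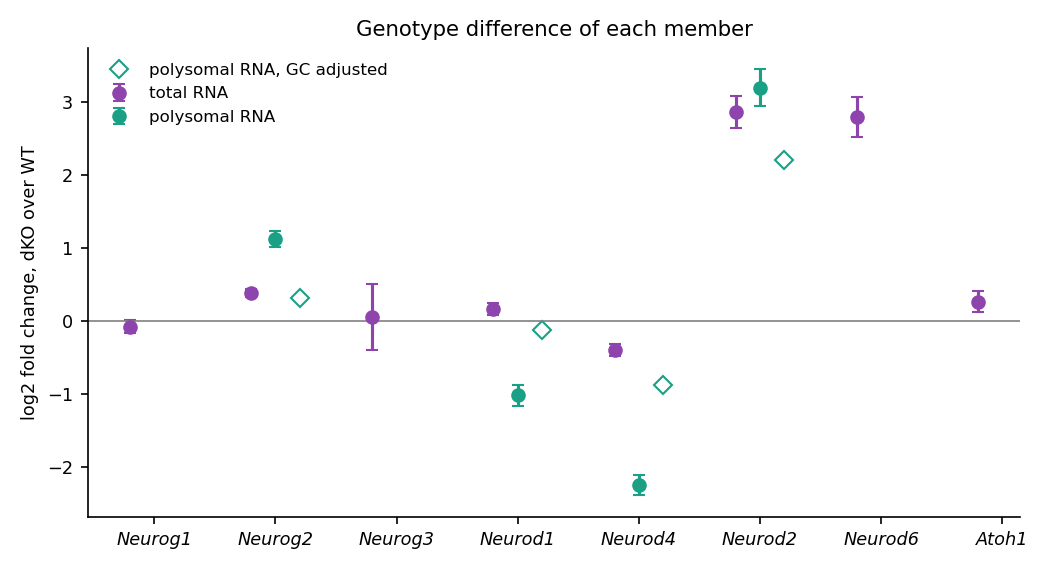
Log2 fold change of each member, dKO over WT, in total RNA and, for the 4 listed members, in polysomal RNA, with and without adjustment for transcript GC content. Bars are 1 standard error. In total RNA Neurod2 and Neurod6 lie at 2.86 and 2.80, Neurog2 at 0.38 and Neurod4 at -0.40.

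Levels of different genes were compared per kilobase of transcript, as CPM per kb averaged over 2 libraries. Neurog2 was the most abundant member in both genotypes, at 70.1 CPM per kb in dKO and 53.8 in WT, followed by Neurog1 at 29.3 in dKO and 31.0 in WT. Next in dKO came Neurod1 at 19.7 and Neurod4 at 15.0, whereas in WT their order was turned, Neurod4 at 19.8 and Neurod1 at 17.7. The ranges of the pair did not overlap in either genotype. Atoh1 followed at 9.00 CPM per kb in dKO and 7.50 in WT.

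The bottom of the order changed most. In dKO, Neurod2 and Neurod6 stood at 5.21 and 5.17 CPM per kb, overlapping each other, and both lay above Neurog3 at 1.18. In WT the same genes lay below Neurog3, with Neurod6 at 0.744 and Neurod2 at 0.713 CPM per kb and Neurog3 at 1.14. There the libraries of Neurod6 overlapped those of both Neurog3 and Neurod2.

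Summed over the 8 genes, the level was 152 and 158 CPM per kb in dKO libraries and 133 and 132 in WT. Neurod2 and Neurod6 together made up 6.60% and 6.80% of that sum in dKO and 0.919% and 1.28% in WT. The 3 neurogenins kept a like share, 65.7% and 64.4% in dKO and 64.0% and 65.9% in WT, and the genotypes overlapped. The 4 Neurod genes also overlapped between genotypes in share, at 29.2% and 29.1% in dKO and 30.4% and 28.4% in WT.

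Likeness to each member was measured as the distance between log2 CPM profiles over the 4 total RNA libraries, among 13053 genes. Neurod2 and Neurod6 were each other's nearest gene, at a distance of 0.501. After Neurod6, the nearest to Neurod2 were Oc90 (0.851), Agtr2 (0.858), Hsd3b6 (0.865) and Akr1e1 (0.907). After Neurod2, the nearest to Neurod6 were Erich2 (0.732), Pcdhb21 (0.851), Rgs5 (0.883) and Ccr2 (0.896). The other members had many genes at a far smaller distance, led for Neurog2 by Lrrc4b and Sft2d2 and for Neurod4 by Stk38l and Rragb. With 4 libraries in 2 groups, this distance mostly reflects the size of the genotype difference.

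Genes beside Neurod2 and Neurod6 on the chromosome gave the following values. Stard3 and Cdk12, on either side of Neurod2, had log2 fold changes of -0.08 ± 0.10 and -0.11 ± 0.07 (adjusted p = 0.595 and 0.221). Ppp1r1b, the nearest gene to Neurod2, had 8 and 10 counts in dKO and 4 and 3 counts in WT. Nearest to Neurod6, Gm3279 at 3308 bases had 0 counts in every total RNA library, and Itprid1 at 155632 bases is a symbol without a row. Further off, Adcyap1r1, a neuropeptide receptor gene 176371 bases from Neurod6, rose by 0.44 ± 0.07 on the log2 scale (adjusted p = 7.60e-10). A link between its change and that of Neurod6 was not tested.

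Among the dimer partners of the 8 factors, 1 of 3 rose and 1 fell. Of all genes tested in total RNA, 14.7% were higher and 16.0% lower. These shares also stand beside the counts of the lists below. Tcf4 rose by 0.34 ± 0.04 (adjusted p = 3.20e-19), Tcf3 had a log2 fold change of -0.10 ± 0.03 (adjusted p = 0.0134) and Tcf12 one of 0.03 ± 0.03 that did not pass. Their summed level was 1298 to 1305 CPM in dKO total RNA and 1229 to 1247 CPM in WT.

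Among 13 genes for bHLH inhibitors, 4 rose and 0 fell, with a median log2 fold change of 0.09, against 0.00 over all genes tested. The share that passed was near the 30.7% of all genes tested. Those that rose were Bhlhe40 (0.63 ± 0.19), the Notch effector Hey2 (0.46 ± 0.18), Id2, which sequesters E proteins (0.23 ± 0.05), and Hes6 (0.14 ± 0.05). Hes6 is also counted among the Neurog and Neurod targets below, so its place among opposing factors is not clear. The count of 4 was 2 under DESeq2 and also without dKO replicate 1, without dKO replicate 2 or without WT replicate 2. Hes1 and Hes5, the main Notch effectors of neural progenitors and named here after their values were seen, had log2 fold changes of -0.13 ± 0.09 and 0.05 ± 0.04 that did not pass.

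Other neural bHLH genes divided in direction, with 4 of 16 tested higher, 2 lower and a median of 0.17. Shares over all genes tested were 14.7% higher and 16.0% lower. Tal2, a midbrain factor, rose by 0.56 ± 0.07, Olig3, a dorsal progenitor factor, by 0.29 ± 0.08 and Nhlh1, which marks newborn neurons, by 0.24 ± 0.05. Twist1, a mesenchymal and neural crest factor, fell by 0.52 ± 0.13 and Olig2, a motor neuron progenitor factor, by 0.34 ± 0.12.

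Of 36 genes described as targets of Neurog or Neurod factors, 17 rose, 6 fell and 13 did not pass, with a median of 0.09. Over all genes tested 14.7% rose and 16.0% fell. The largest differences among them were those of the somatostatin receptor gene Sstr2, with 63.1 CPM in dKO and 36.7 CPM in WT (0.78 ± 0.09), and of the corepressor gene Cbfa2t3, with 55.1 CPM in dKO and 35.4 CPM in WT (0.64 ± 0.09). Btg2, an antiproliferative gene of neurogenic progenitors, averaged 360 CPM in dKO and 249 CPM in WT (0.53 ± 0.04). Mfng, a modifier of Notch, rose by 0.37 ± 0.05 and Neurl1a by 0.37 ± 0.15. The Notch pathway gene Dll3 fell by 0.60 ± 0.09, with 37.0 CPM in dKO and 56.2 CPM in WT. Dll1, the ligand gene that neurogenins are known to raise and named after its value was seen, had 165 CPM in dKO and 171 CPM in WT and did not pass (-0.05 ± 0.05, adjusted p = 0.532). The count of 6 lower was 3 under DESeq2 and also without dKO replicate 1, without dKO replicate 2 or without WT replicate 2.

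The dorsal telencephalon, where Neurog2, Neurod2 and Neurod6 act, was described by 24 genes of its progenitors and early neurons. Of these 15 rose and 2 fell, where 14.7% of all genes tested rose and 16.0% fell. The list had a median of 0.33 and a summed level of 2136 to 2176 CPM in dKO and 1662 to 1669 CPM in WT. The largest differences were those of the nuclear factor I genes Nfix (1.44 ± 0.12), Nfia (1.02 ± 0.05) and Nfib (0.94 ± 0.05). Reln, which marks early-born Cajal-Retzius cells, rose by 0.65 ± 0.13, the deep-layer neuron gene Bcl11b by 0.53 ± 0.08 and Lhx9 by 0.51 ± 0.06. Emx1, which marks the dorsal telencephalon and is named after its value was seen, did not pass. It had 11.9 CPM in dKO and 9.84 CPM in WT (adjusted p = 0.259). Eomes, a gene of intermediate progenitors and also a target of Neurog2, was 1 of the 2 that fell (-0.27 ± 0.11, adjusted p = 0.0496). Without dKO replicate 1 or without dKO replicate 2, 0 genes of the dorsal telencephalon list were called lower.

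Among 15 genes of the rhombic lip and of the dorsal interneurons that arise from Atoh1-expressing cells, 7 rose and 0 fell, with a median of 0.25. They included Wnt1 (0.64 ± 0.23), Lhx9, Barhl2 (0.35 ± 0.09), Zic2 (0.34 ± 0.06), Lhx2 (0.25 ± 0.04) and Nhlh1. The summed level of the 15 genes was 1348 to 1364 CPM in dKO and 1140 to 1165 CPM in WT. Across all genes tested 14.7% rose and 16.0% fell. Lhx2, Lhx9, Nhlh1 and several other genes stand in more than 1 list.

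**Figure D3:**
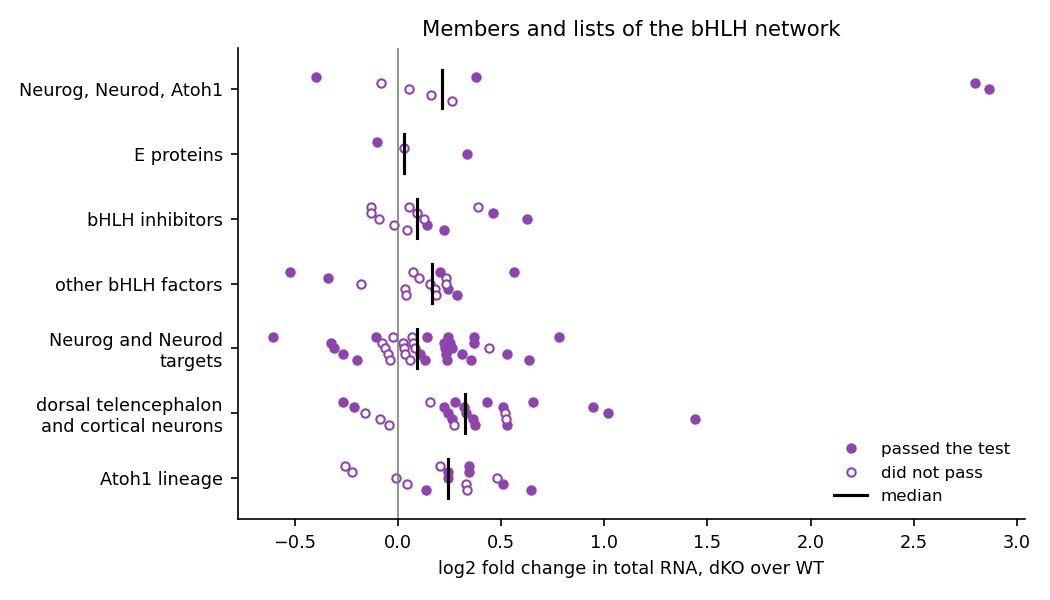
Log2 fold changes, dKO over WT, in total RNA for the members and for each list of related genes, 1 point per gene tested, with the list's median as a bar. The dorsal telencephalon list has a median of 0.33, the target list one of 0.09, and all genes tested one of 0.00.

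Markers of other cell types that express these factors were read beside the members, and their part in the members' differences was not tested. Marker counts stand beside 14.7% higher and 16.0% lower over all genes tested. Of 15 sensory ganglion markers tested, 1 rose and 3 fell, with a summed level of 303 to 309 CPM in dKO and 338 CPM in both WT libraries. Neural crest and Schwann precursor markers had 0 higher and 1 lower of 8, at 452 to 459 CPM in dKO and 479 CPM in both WT libraries. Neural tube markers had 3 higher and 5 lower of 11, led by Sox3 (-0.90 ± 0.08). Retina markers, with 1 higher and 1 lower of 6, summed to 46.1 to 48.8 CPM in dKO and 43.7 to 46.6 CPM in WT. Inner ear and olfactory placode markers, with 4 higher and 1 lower of 11, summed to 478 to 483 CPM in dKO and 430 to 431 CPM in WT. Endocrine pancreas markers had 0 higher and 2 lower of 6, at 70.5 to 73.8 CPM in dKO and 87.6 to 88.5 CPM in WT.

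Polysomal RNA showed a wider spread between members, but 2 features of that table bear on every value. Of genes averaging 100 counts or more, none had a raw dKO to WT count ratio between -2.04 and -1.71 on the log2 scale. Of them 2927 lay below that range and 2514 above it. After scaling for the smaller dKO sums, that range lies around no genotype difference, so genes with little difference are missing there. Neurog2, above the range at a raw -0.82, had a scaled log2 fold change of 1.12, and Neurod1, below it at -2.96, had -1.02. Listing thus appears to depend on the genotype comparison, though how genes were chosen is not stated. Of the 5777 genes tested 99.7% passed (47.2% higher, 52.5% lower). The CPM of the genotypes did not overlap for 100% of these genes. A member's call or lack of overlap there thus says nothing particular to it. The fold changes also followed transcript GC content, with a Spearman correlation of 0.764 across 5572 genes, which are not independent replicates. Values with a GC adjustment, chosen after seeing the data, therefore stand beside the others. With it 48.1% of the genes passed (26.5% higher, 21.6% lower). Rn45s, Lars2 and Mir6236 together took 10.3% and 4.96% of the dKO polysomal sums, against 0.127% and 0.117% in WT, and their part in the members' values was not tested. Leaving out either dKO polysomal library ended no genotype call of the 4 members.

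**Figure D4:**
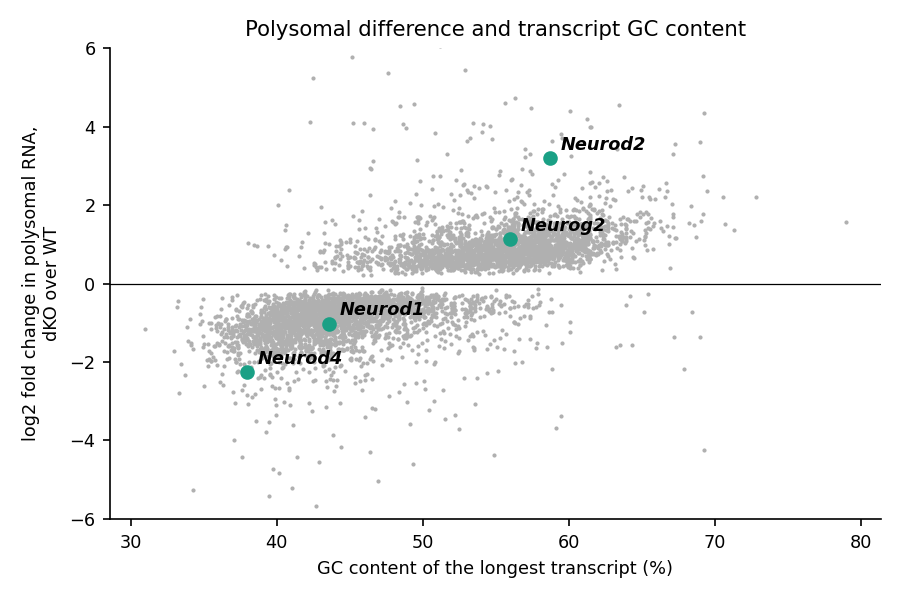
Log2 fold change in polysomal RNA, dKO over WT, against transcript GC content in percent for each listed gene, with the 4 members named. The vertical axis runs between -6 and 6, which leaves 45 genes outside it. The members rise in order of GC content, from Neurod4 (38.0% GC, -2.25) to Neurod2 (58.7% GC, 3.20). With the GC adjustment Neurod4 still stood at -0.88 and Neurod2 at 2.20.

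Neurod2 had 135 and 214 counts in dKO polysomal RNA and 57 and 86 in WT, or 39.7 and 42.1 CPM in dKO and 3.62 and 5.28 CPM in WT. It was the only listed member whose raw count was higher in dKO although the dKO sums were smaller. The log2 fold change was 3.20 ± 0.25 (adjusted p = 0.000160), and 2.20 with the GC adjustment (adjusted p = 0.00112).

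Neurog2 had 410 and 337 CPM in dKO polysomal RNA and 168 and 174 CPM in WT, without overlap. Its log2 fold change was 1.12 ± 0.11 (adjusted p = 0.000245), and 0.31 with the GC adjustment (adjusted p = 0.0201), a smaller value of the same sign.

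Neurod1 had 35.9 and 30.5 CPM in dKO polysomal RNA and 67.1 and 67.0 CPM in WT, again without overlap. The log2 fold change of -1.02 ± 0.14 (adjusted p = 0.000884) became -0.13 with the GC adjustment and no longer passed (adjusted p = 0.534).

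Neurod4 had 20.3 and 17.3 CPM in dKO polysomal RNA, against 87.9 and 90.2 CPM in WT. It had the lowest fold change of the 4, at -2.25 ± 0.14 (adjusted p = 0.000112), and -0.88 with the GC adjustment (adjusted p = 0.00673). With the adjustment 3 of the 4 listed members passed, where 48.1% of all genes did. Neurod2 and Neurog2 were higher and Neurod4 lower, the direction each had in total RNA. Listing appears to depend on this same comparison, and the adjustment does not undo that, so the count is no test of the members. The 4 members not listed could not be counted.

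**Figure D5:**
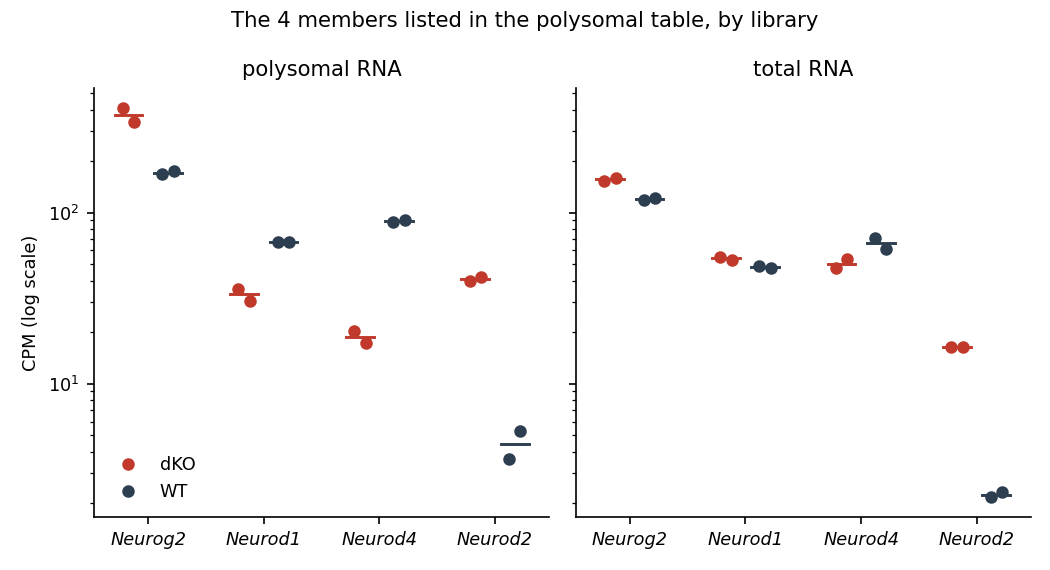
Levels of the 4 listed members in polysomal RNA and in total RNA, with CPM on a log axis, 1 point per library and dKO left of WT. In polysomal RNA Neurod4 lies at 20.3 and 17.3 CPM in dKO and at 87.9 and 90.2 CPM in WT, a wider gap than in total RNA.

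Per kilobase, the polysomal order in dKO was Neurog2 at 168, Neurod2 at 13.0, Neurod1 at 12.2 and Neurod4 at 5.62 CPM per kb. The order in WT was Neurog2 at 76.8, Neurod4 at 26.6, Neurod1 at 24.6 and Neurod2 at 1.42 CPM per kb. Neurog2 led in both. In dKO the libraries of Neurod2 and Neurod1 overlapped, so their order is that of means alone, and in WT the ranges of the 4 did not overlap.

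Whether the genotype difference itself differed between polysomal and total RNA was tested as an interaction in a fit of all 8 libraries, in which 89.5% of 5768 genes passed (43.7% higher, 45.8% lower). The interaction was 0.78 ± 0.11 for Neurog2 (adjusted p = 0.000136), -1.15 ± 0.15 for Neurod1 (adjusted p = 4.81e-05) and -1.82 ± 0.18 for Neurod4 (adjusted p = 8.24e-06). For Neurod2 it was 0.37 ± 0.32 and did not pass (adjusted p = 0.286). With the GC adjustment 43.5% of all genes passed (23.3% higher, 20.2% lower) and 0 of the 4 members did, at -0.05 for Neurog2, -0.33 for Neurod1, -0.64 for Neurod2 and -0.44 for Neurod4, with adjusted p-values from 0.0825 to 0.717.

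Within dKO embryos, polysomal RNA was set against total RNA, a comparison that shares its libraries with the interaction and in which 90.0% of genes passed (43.1% higher, 46.9% lower). All 4 members passed, Neurog2 (0.71 ± 0.08) and Neurod2 (0.79 ± 0.19) with a higher value in polysomal RNA and Neurod1 (-1.25 ± 0.11) and Neurod4 (-1.97 ± 0.14) with a lower one. With the GC adjustment 58.6% of all genes passed (29.6% higher, 29.0% lower). Of the members 2 of 4 passed, a share near that background, Neurod1 (-0.43, adjusted p = 0.0121) and Neurod4 (-0.58, adjusted p = 0.00690), while Neurog2 and Neurod2 turned to -0.11 and -0.22. In WT embryos 11.9% of genes passed (3.47% higher, 8.48% lower) and 0 of the 4 members did, with log2 ratios of polysomal to total RNA of -0.06 ± 0.08 for Neurog2, -0.10 ± 0.09 for Neurod1, 0.41 ± 0.26 for Neurod2 and -0.15 ± 0.10 for Neurod4. None of these 4 reached an unadjusted p under 0.05 in edgeR either, and 0 passed in DESeq2, which gave no adjusted p for Neurod2.

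Related genes in the polysomal table are counted beside the shares of all its genes, 47.2% higher and 52.5% lower before the GC adjustment and 26.5% higher and 21.6% lower with it. Of 21 listed target genes 13 were higher and 7 lower, and 9 and 3 with the adjustment. All 9 listed neural bHLH genes were higher, and 2 with the adjustment. Of 10 listed dorsal telencephalon genes 8 were higher and 2 lower, and 5 and 1 with the adjustment. All 6 listed genes of the Atoh1 lineage were higher, and 0 with the adjustment. The bHLH inhibitors stood at 6 higher and 1 lower of 7, and at 4 and 2 with the adjustment. Of the 3 E protein genes 1 was higher and 2 lower, and 1 and 1 with the adjustment, Tcf4 and Tcf3 each changing sign to 0.57 and -0.26.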

How the data were processed

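The authors deposited 2 tables of raw read counts per gene symbol, not normalized, 1 for total and 1 for polysomal RNA. The labels' protocols give Trizol extraction and a strand-specific kit. The submitters' processing notes name TopHat, HTSeq, FastQC and the builds GRCm38, mm10 and mm9. The strand setting, the annotation and the choice of polysomal genes: not given in the sources used here.

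Genes were tested over whole tables with edgeR 4.0.16 in R 4.3.3 (quasi-likelihood F test, TMM scaling, filterByExpr, Benjamini-Hochberg adjustment over all genes tested, threshold 0.05). Genotype comparisons used the 4 libraries of a fraction, and the interaction and fraction comparisons all 8. Standard errors are the absolute log2 fold change over the square root of F, and 95% intervals are normal. Polysomal CPM rest on sums over listed genes. GC adjustment used a loess offset (span 0.5) per library. Lengths, GC and positions are from GENCODE M21 (GRCm38). Self-tests on simulated counts were run. Alternatives included DESeq2 1.42.0, other scalings and filters, and each library left out.

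Members and lists were chosen with earlier results of these data known. Named genes are all members, the targeted genes, up to 6 called genes per list with the largest change, and the 5 genes most like a member, of which some are printed. Some genes of the lists are counted but not reported by name here.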

Additional observations from a re-analysis of the deposited data

Results flagged for a closer look

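For 3 members the genotype difference was not the same in polysomal and total RNA by the interaction test. Its value was 0.78 for Neurog2, -1.15 for Neurod1 and -1.82 for Neurod4, all on the log2 scale. In the same fit 89.5% of all genes passed. With the GC adjustment 43.5% of all genes passed and 0 of the 3 did.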

How the results depend on the processing

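Under the alternatives run, Neurod2, Neurod6, Neurog2 and Neurod4 passed in total RNA each time, with Neurod2 between 2.81 and 2.91 and Neurog2 between 0.35 and 0.41. Neurog3 had no stable sign when a library was left out, at -0.25 to 0.44. With the GC adjustment the members that passed fell to 0 (from 3) for the interaction and to 2 (from 4) for polysomal against total RNA in dKO. Signs turned under it for the interaction of Neurog2 (-0.048) and Neurod2 (-0.64) and for the dKO fraction difference of Neurog2 (-0.11) and Neurod2 (-0.22). In polysomal RNA they turned for Tcf4 (0.57), Tcf3 (-0.26), Nkx6-1 (-0.36), Ngfr (-0.40), Dll3 (-0.078) and Barhl2 (-0.032). The cause was not tested.

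Over all genes, 4485 of 14594 passed in total RNA, and 2944 passed under DESeq2. In the fit of all 8 libraries, 1283 of the 5768 genes it tests passed, a smaller share as well. The reason for the smaller share was not tested. In that fit 7 target genes were higher and 2 lower, 2 genes of the Atoh1 lineage were higher and 1 bHLH inhibitor was higher. Only genes also listed for polysomal RNA could be called there. Listed were 21 of 36 target genes, 6 of 15 genes of the Atoh1 lineage and 7 of 13 bHLH inhibitors. With the GC adjustment 2777 genes passed against 5760 in polysomal RNA, 2510 against 5160 for the interaction and 3379 against 5193 in the dKO fraction comparison. The WT fraction count of 689 ranged from 178 to 1990 when a library was left out. Replicate numbers share only a number, with a correlation of their deviations of -0.0414 in total RNA. With the replicate block no member's call changed (Neurod2 at 2.86, Neurod6 at 2.81, Neurog2 at 0.38, Neurod4 at -0.40) and 4369 genes passed. Low counts limit Neurog3, and the sums over listed genes limit all polysomal levels.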
